A study of Bos taurus with 90 samples.

Results

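miR-192, miR-194 and miR-215 were described across 5 tissues of dairy cows. Their rows were taken by name from the deposited miRNA tables, which listed them in every sample, as 3 of the 388 miRNAs listed in any tissue and of the 289 listed in all 5 tissues. Small RNA was sequenced from liver, mammary gland and the epithelium of rumen, jejunum and duodenum, as the labels name them. The paper names jejunum and duodenum without the word epithelium. The cows were mid-lactation Chinese Holsteins whose forage was rice straw, corn stover or alfalfa hay. Each tissue had 18 samples, 6 for each diet, or 90 in all, and the design text states that every tissue was sampled from every cow. No genotype, transgene or drug treatment distinguished the cows, and no group was left without a forage. The labels give no age and no batch or lane, and each sample of about 100 mg of ground tissue held all its cell types.

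miR-192 and miR-215 are related miRNAs that share a seed, the stretch at the 5′ end of a miRNA that pairs with its target mRNAs, so they are predicted to act on much the same transcripts. miR-194 has a different seed but is made from the same primary transcripts, because a miR-194 gene lies beside the gene of each of the other two. In mammals the clusters are known as markers of intestinal epithelium and liver, where hepatocyte nuclear factors drive their transcription, and they have also been placed under p53, the tumour suppressor and stress response factor. The same arrangement was present in the bovine RefSeq annotation (assembly ARS-UCD2.0), in which MIR215 and MIR194-1 were neighbours on chromosome 16 and MIR192 and MIR194-2 were neighbours on chromosome 29. The deposited tables hold a single row for miR-194, so the reads of its loci on the 2 chromosomes could not be separated. The mature forms of miR-192 and miR-215 are near-identical, and the aligner tolerated 2 mismatches and kept reads that mapped to as many as 10 places, so part of the reads of each may have been assigned to the other.

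The values are CPM, the reads of a miRNA scaled to a library of 1000000 reads mapped to all annotated miRNAs. Mapped reads per sample, as implied by the smallest step between CPM values, lay between 937556 and 15621501, and their median was 5778304. The lowest value of any member, 22.9 CPM for miR-215 in a mammary library, corresponded to 35 reads. The labelled tissues carried their markers. miR-122, the hepatocyte miRNA, averaged 11021 ± 1144 CPM (SD, n = 18) in liver and 7.88 CPM in mammary gland and was not listed in the other tissues. Of the 3 miRNAs fixed for stratified epithelium, miR-205 and miR-31 summed to 38212 CPM on average in rumen, and miR-203 was not listed there. In liver miR-205 was uneven, at 88.6 ± 358 CPM (SD, n = 18) with a highest library of 1525 CPM, against an average of 1.91 CPM in duodenum. The source of these reads in liver was not tested. The 6 miRNAs of the epithelial list (miR-200a, miR-200b, miR-200c, miR-141, miR-429 and miR-375) were listed in all tissues and summed to 18089 CPM in duodenum, 12256 in jejunum, 622 in liver, 19817 in rumen and 42908 in mammary gland. The smooth muscle pair miR-143 and miR-145 summed to between 127209 CPM (liver) and 213239 CPM (jejunum) on average, so it was abundant in every tissue. The cells these reads came from were not tested.

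miR-192 was the most abundant miRNA of duodenum and liver and the second of jejunum. In duodenum its level was 256562 ± 33728 CPM (SD, n = 18), with a lowest sample of 193129, a median of 259385 and a highest of 327244, which is 25.7% ± 3.37 of all mapped miRNA reads. In jejunum the mean was 193633 ± 38464 CPM, from 119672 to 249455. In liver it was 137788 ± 19402 CPM, from 113678 to 188688. Rumen and mammary gland were far below, with 2907 ± 474 and 2554 ± 368 CPM (SD, n = 18 each), or 1.13% and 0.995% of the duodenal mean. Every sample of the small intestine and liver lay above every sample of rumen and mammary gland, and the closest of the former, liver, exceeded rumen by 47.4 times. In bulk tissue, fewer cells of a type and less RNA per cell cannot be told apart.

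miR-194 followed the same order at a lower level. It averaged 12199 ± 1598 CPM in duodenum, 9983 ± 2989 in jejunum, 7571 ± 863 in liver, 168 ± 37.9 in rumen and 142 ± 64.2 in mammary gland (SD, n = 18 each), and it ranked between 16 (duodenum) and 129 (rumen) among the listed miRNAs. Duodenum overlapped with jejunum, jejunum with liver, and rumen with mammary gland, whereas the lowest liver sample (6244 CPM) was far above the highest of rumen (253 CPM).

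miR-215 departed from this order in liver. It was the fourth most abundant miRNA in duodenum, at 53138 ± 21869 CPM, with a lowest sample of 21032 and a highest of 91487. In jejunum it averaged 28225 ± 14481 CPM, from 9656 to 66978. In liver the mean was only 869 ± 202 CPM, from 552 to 1433, so the lowest jejunal sample held more miR-215 than any liver. Mammary gland (194 ± 142 CPM, from 22.9 to 529) and rumen (184 ± 123 CPM, from 38.4 to 481) did not reach the lowest liver sample. miR-215 was therefore at 1.64% of its duodenal mean in liver, where miR-192 was at 53.7% and miR-194 at 62.1%. It was also the most variable member in duodenum, with a coefficient of variation of 41.2% against 13.1% for miR-192.

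**Figure D1:**
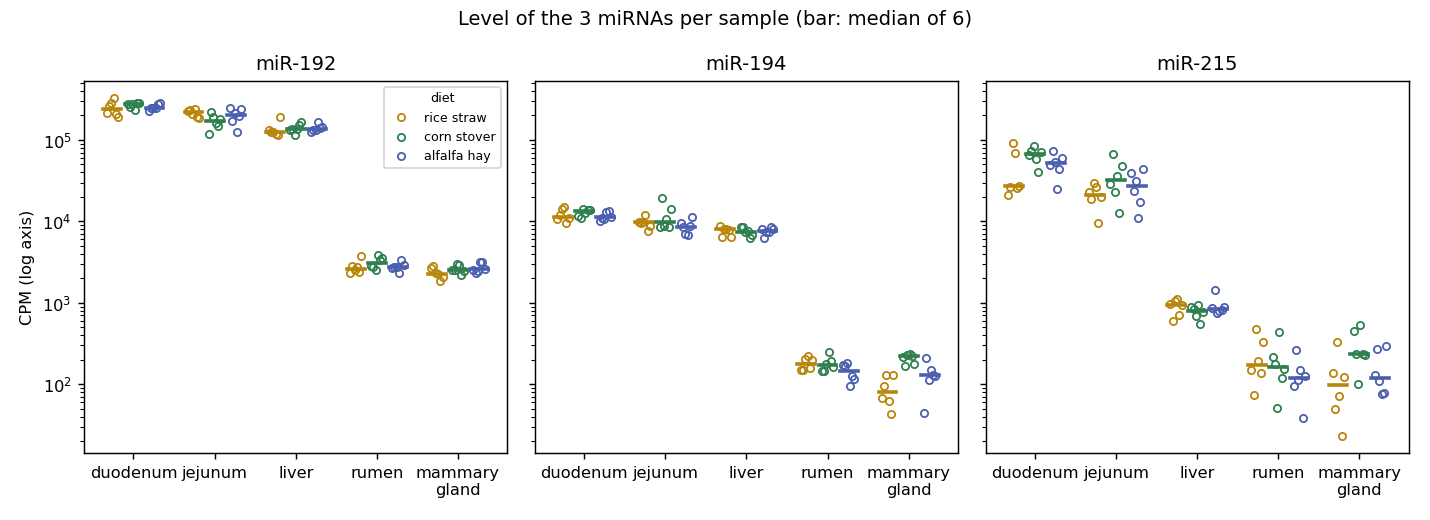
CPM (log axis) of miR-192, miR-194 and miR-215 in each of the 90 samples, by tissue and diet, with open circles for samples and bars for the median of 6. miR-192 and miR-194 lie high in duodenum, jejunum and liver and low in rumen and mammary gland, while miR-215 is high in duodenum and jejunum only, at 869 CPM on average in liver.

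Differences between tissues were tested with limma on log2(CPM + 1), in a fit of the 36 samples of each pair, with Benjamini-Hochberg adjustment over all miRNAs tested. Of the 30 comparisons of a member between 2 tissues, 27 passed the threshold of 0.05, and the remaining 3 were those of mammary gland with rumen. From duodenum to liver, miR-192 fell by 0.90 on the log2 scale (SE 0.064, adjusted p = 2.94e-16), miR-194 fell by 0.69 (SE 0.062, adjusted p = 4.07e-13) and miR-215 fell by 5.83 (SE 0.17, adjusted p = 2.25e-29), in a comparison in which 85% of 306 miRNAs passed the test. The median miRNA changed by -0.27 in that comparison. The size depended on the scaling, with a range from -0.40 (upper-quartile scaling) to -1.23 (total without the members) for miR-192 and from -0.19 to -1.02 for miR-194, and both stayed past the threshold (highest adjusted p = 4.06e-05 and 0.0308). From jejunum to liver the log2 differences were -0.47, -0.36 and -4.88, all past the threshold, with a background of 85.3%. The first and the second of these rest on the scaling, since with upper-quartile scaling they were 0.08 and 0.20 and did not pass. From liver to rumen the log2 differences were -5.57 (miR-192), -5.51 (miR-194) and -2.48 (miR-215), with 84.5% of 304 miRNAs called. In the remaining pairs the members were called together with 75.8% (rumen and duodenum), 75.9% (mammary gland and duodenum), 73.8% (rumen and jejunum), 70.5% (mammary gland and jejunum) and 65% (mammary gland and liver) of the miRNAs tested. Mammary gland and rumen, the neighbours at the low end of the order, differed by -0.18 (95% interval -0.40 to 0.03, adjusted p = 0.115) for miR-192, by -0.38 (adjusted p = 0.0919) for miR-194 and by -0.04 (95% interval -0.71 to 0.64, adjusted p = 0.926) for miR-215. In this pair 71.9% of 303 miRNAs were called.

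The comparison of jejunum with duodenum addressed how the cluster is distributed along the small intestine. All 3 members were lower in jejunum. miR-192 fell by 0.42 on the log2 scale (SE 0.088, adjusted p = 4.94e-04), miR-194 fell by 0.33 (SE 0.096, adjusted p = 0.0110) and miR-215 fell by 0.95 (SE 0.22, adjusted p = 0.00169), which is 1.93-fold lower. For comparison, 24.2% of the 331 miRNAs tested were called in this pair and 9.97% were called lower. All 18 jejunal samples were below the duodenal mean of miR-192, 16 of 18 were below that of miR-194 and 17 of 18 below that of miR-215, although the ranges of the tissues overlapped. The call of miR-194 was lost without the cows fed rice straw (adjusted p = 0.0554) or alfalfa hay (0.149) and in a fit of all 90 samples (0.159). That of miR-192 was lost without the cows fed corn stover, at -0.29 (adjusted p = 0.0568).

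Other epithelial miRNAs moved the same way between these tissues. Of the 6 miRNAs of the epithelial list, 5 were lower in jejunum and none was higher, with a median log2 difference of -0.60, against 0.03 over all 331 miRNAs. miR-200b, a repressor of epithelial-mesenchymal transition factors, fell by 0.80 (SE 0.093, adjusted p = 5.94e-08). miR-375, known from endocrine and secretory epithelial cells, fell by 0.68 (adjusted p = 5.00e-05), and miR-429 was the member that did not pass (-0.15, adjusted p = 0.429). In the smooth muscle pair, miR-143 rose by 0.39 (adjusted p = 0.00239) and miR-145 differed by 0.06 (adjusted p = 0.724). The part of these lists in the difference of the members was not tested. Of the 8 miRNAs linked to p53 (miR-34a, miR-34b, miR-34c, miR-15a, miR-16a, miR-16b, miR-107 and miR-145), none passed in either direction with CPM as deposited, while 3 were called lower with the library total taken without the members, 1 lower with upper-quartile scaling and 1 higher with trimmed-mean scaling or without miR-143 and miR-145. miR-34a, a direct p53 target, averaged 109 ± 21.6 CPM in duodenum and 105 ± 19.9 in jejunum (SD, n = 18), a log2 difference of -0.05 (adjusted p = 0.734).

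Within diets, the members were lower in jejunum in each of the 9 comparisons in value, but only 2 passed the test. In cows fed corn stover, duodenal miR-192 ranged from 231480 to 287757 CPM with a median of 274115, and jejunal miR-192 from 119672 to 218767 with a median of 169784, without overlap. It fell by 0.68 on the log2 scale (SE 0.14, adjusted p = 3.21e-04), and miR-215 fell by 1.01 (SE 0.37, adjusted p = 0.0269), while miR-194 differed by -0.21 (adjusted p = 0.298). The call of miR-215 was lost with trimmed-mean scaling, at -0.93 (adjusted p = 0.0753), and with the library total taken without miR-143 and miR-145, at -0.82 (adjusted p = 0.0555). The background for corn stover was 36.9% of 331 miRNAs. With alfalfa hay the differences were -0.39, -0.44 and -0.96 (adjusted p = 0.0771, 0.0640 and 0.0840, background 9.37%). With rice straw they were -0.20, -0.32 and -0.88 (adjusted p = 0.679, 0.438 and 0.386, background 1.21%). The interaction of tissue and diet did not pass for any member (adjusted p = 0.202 for miR-192, 0.717 for miR-194 and 0.983 for miR-215), whereas 20.5% of all miRNAs passed it, so the differences between diets in these values were not shown. The smooth muscle pair summed to 247938 CPM on average in jejunum of cows fed corn stover, from 184453 upward. With rice straw and alfalfa hay it summed to 191025 and 200755 CPM. Over all diets miR-143 averaged 210856 CPM in jejunum and miR-145 2384 CPM, so the sum follows miR-143. With corn stover against rice straw, 1 of the pair was called lower and none higher, with a median log2 difference of -0.09. The part of the pair in the result was not tested.

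**Figure D2:**
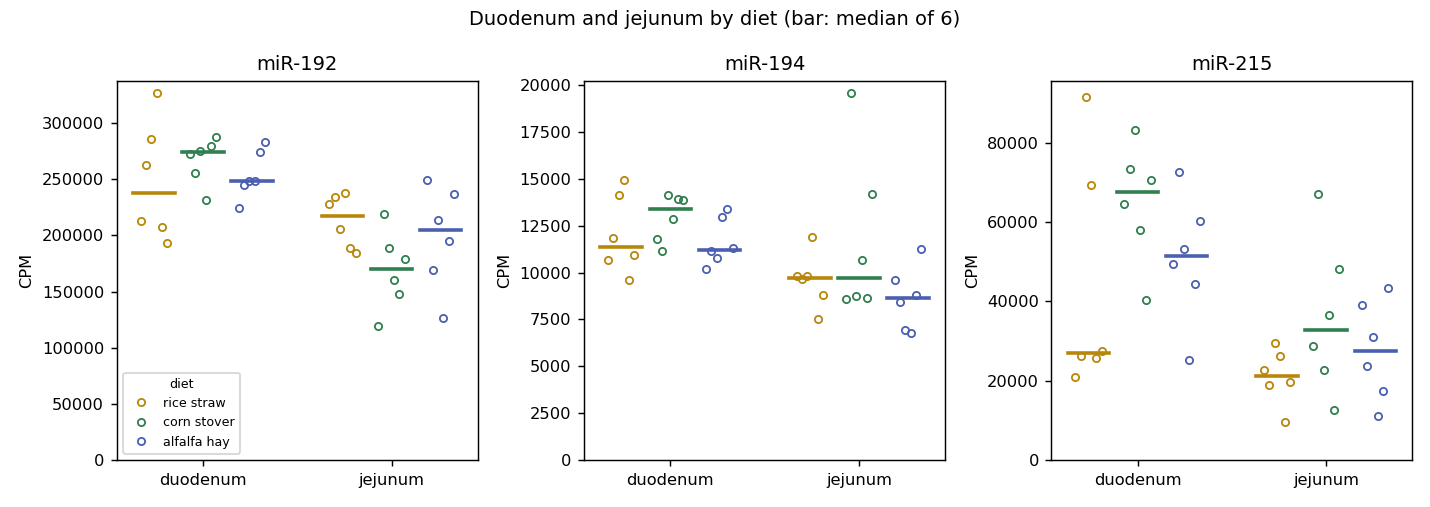
CPM (linear axis from 0) of the 3 miRNAs in duodenum and jejunum, by diet, with open circles for samples and bars for the median of 6. miR-192 of cows fed corn stover does not overlap between duodenum (231480 CPM or more) and jejunum (218767 CPM or less), and miR-194 has a single jejunal sample near 19586 CPM.

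The ratio of the members within a sample does not depend on the library total. miR-194 stood at a nearly constant proportion of miR-192. The ratio of miR-194 to miR-192 averaged 0.0477 ± 0.00440 in duodenum, 0.0527 ± 0.0150 in jejunum, 0.0562 ± 0.0108 in liver, 0.0585 ± 0.0128 in rumen and 0.0558 ± 0.0252 in mammary gland (SD, n = 18 each), although the levels themselves spanned about 2 orders of magnitude. In a permutation test of the log2 ratio with 100000 resamples (2-sided, adjusted over 20 comparisons), liver was 0.21 higher than duodenum (adjusted p = 0.0226) and rumen 0.27 higher (adjusted p = 0.00676), and the other 8 pairs of tissues did not pass. The range was narrowest in duodenum, where the highest sample was 1.42 times the lowest, and widest in mammary gland, at 5.65 times.

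The ratio of miR-215 to miR-192 differed strongly between tissues. It averaged 0.204 ± 0.0737 in duodenum, with a lowest sample of 0.0987 and a highest of 0.320. In jejunum it was 0.147 ± 0.0715, from 0.0512 to 0.306, and the log2 ratio was 0.53 lower than in duodenum by the difference of means (-0.53, permutation adjusted p = 0.0322). With the difference of medians this was -0.72 and did not pass (adjusted p = 0.076). In liver the ratio was 0.00642 ± 0.00173, from 0.00365 to 0.0107, and all 18 livers were below every sample of the small intestine. The log2 difference of liver from duodenum was -4.93 and that from jejunum -4.41 (permutation adjusted p = 3.33e-05 for each, from the smallest p that 100000 resamples can give). As a share of miR-192 and miR-215 together, miR-215 accounted for 16.6% in duodenum, 12.5% in jejunum and 0.637% in liver. Rumen (0.0634 ± 0.0414) and mammary gland (0.0765 ± 0.0542) lay between, with log2 ratios 3.08 and 3.22 above liver (adjusted p = 3.33e-05 for each) and 1.86 and 1.71 below duodenum, and did not differ detectably from each other (0.15, adjusted p = 0.753).

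**Figure D3:**
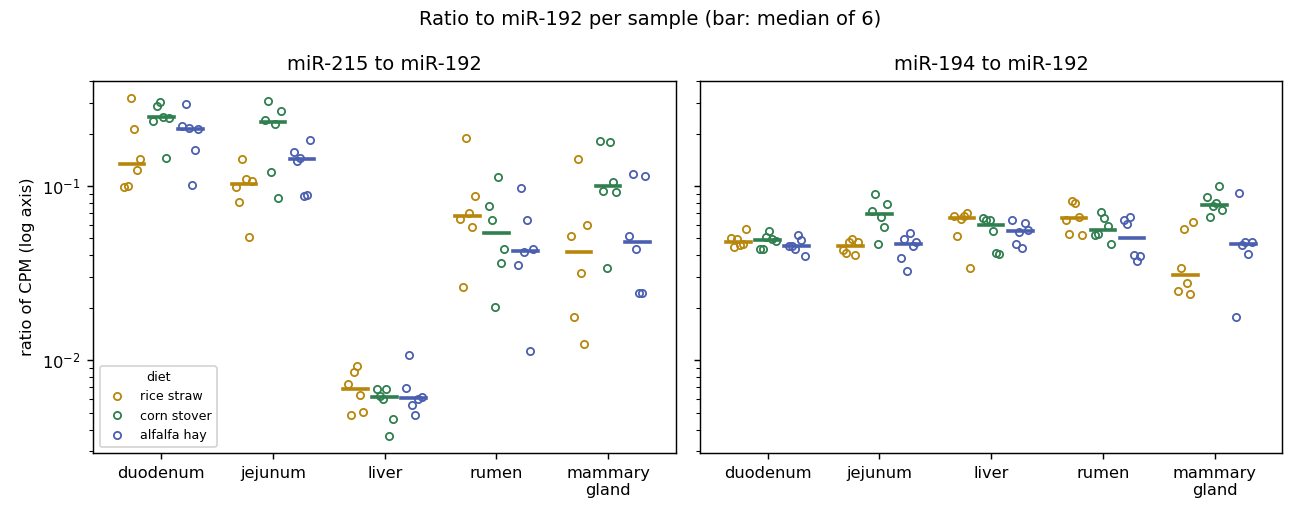
Ratio of CPM to miR-192 (log axis) of miR-215 and of miR-194 in each of the 90 samples, by tissue and diet, with open circles for samples and bars for the median of 6. The miR-215 to miR-192 ratio falls to 0.00642 on average in liver, while the miR-194 to miR-192 ratio averages between 0.0477 and 0.0585 in the 5 tissues.

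The miR-215 to miR-192 ratio varied within diets, and samples that carried the same diet and number in different tissues tended to differ in the same direction. The labels do not state that a shared number means the same cow. Over the 18 same-numbered samples, the log2 ratio in duodenum and that in jejunum gave Pearson's r = 0.711 (permutation p = 9.50e-04, adjusted over 6 relations 0.0057) and Spearman's rho = 0.715 (permutation p = 0.00123, adjusted 0.00738), and r was 0.699 without the 2 samples farthest from the duodenal median. After subtraction of the diet means, r was 0.603 (permutation adjusted p = 0.0244) and rho 0.560 (adjusted p = 0.0523), and r was 0.519 without the farthest 2 samples and did not pass (permutation adjusted p = 0.120). Between duodenum and liver, r was 0.464 (adjusted p = 0.154) and rho 0.362 (adjusted p = 0.415) over all samples, and 0.725 (permutation adjusted p = 0.00408) and 0.730 (adjusted p = 0.00582) within diets, where r was 0.702 without the farthest 2. Between jejunum and liver, r was 0.163 (permutation p = 0.517) over all samples and 0.468 (permutation p = 0.0515, adjusted 0.0834) within diets.

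The relation was also looked for in the other 7 pairs of tissues, which were added after the values had been seen and were adjusted over 14 relations. Rumen and mammary gland gave r = 0.528 over all samples (permutation adjusted p = 0.0821) and r = 0.740 within diets (permutation adjusted p = 0.00588), with rho = 0.701 (adjusted p = 0.0223). Jejunum and mammary gland gave r = 0.761 (permutation adjusted p = 0.0035) and r = 0.665 within diets (permutation adjusted p = 0.0194). In all 10 pairs of tissues r was positive, from 0.163 to 0.761 over all samples and from 0.417 to 0.740 within diets, and it passed the adjustment in 3 and 4 of the 10 pairs. For the miR-194 to miR-192 ratio, r was positive in 5 and negative in 5 pairs over all samples, from -0.466 to 0.612, and jejunum and mammary gland passed (r = 0.612, permutation adjusted p = 0.0334, and rho = 0.703, adjusted p = 0.0164). Within diets that pair gave r = 0.227 (permutation adjusted p = 0.428), and r was positive in 3 and negative in 7, from -0.562 to 0.389, with no pair past the adjustment.

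Single sets of same-numbered samples show the range. In the rice straw group, the samples numbered 3 had the highest ratio of that group in duodenum (0.320), jejunum (0.143), rumen (0.190) and mammary gland (0.142) and the next to highest in liver (0.00853). In the alfalfa hay group, the samples numbered 2 had the highest ratio in duodenum (0.296), liver (0.0107), rumen (0.0976) and mammary gland (0.117), but in jejunum (0.140) 3 others of the 6 were higher. In the corn stover group, the samples numbered 5 had the lowest ratio in duodenum (0.144), jejunum (0.0854) and liver (0.00365), but not in rumen (0.0361) or mammary gland (0.106), where it was the third highest of 6. These sets were picked after their values were seen.

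**Figure D4:**
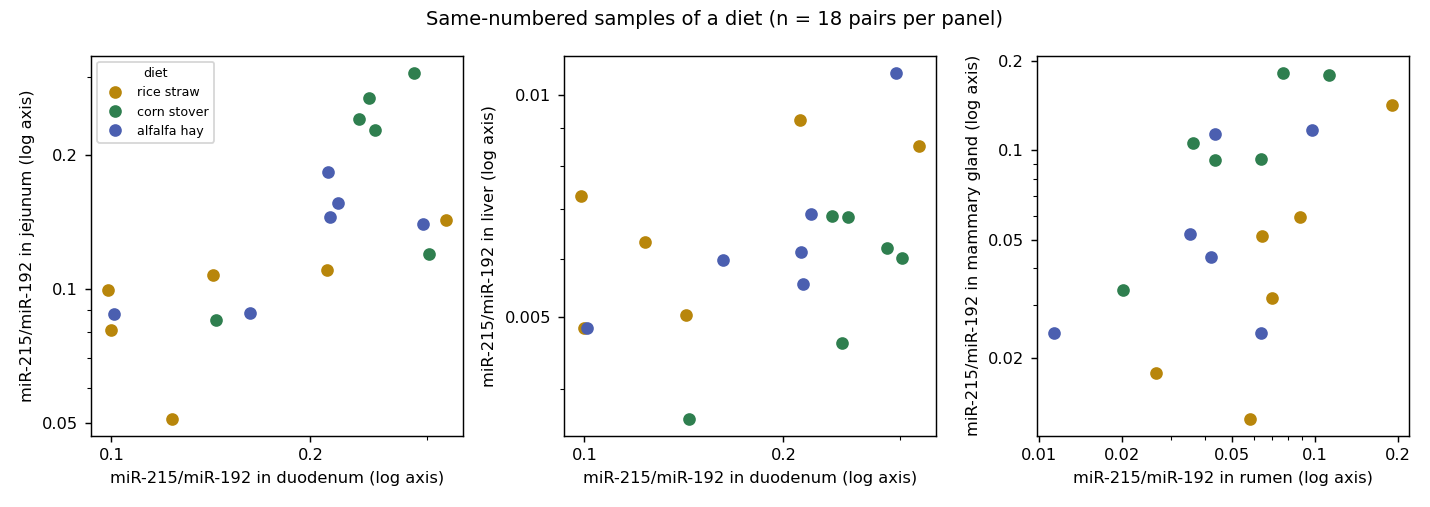
Ratio of miR-215 to miR-192 (log axes) in duodenum and jejunum, duodenum and liver, and rumen and mammary gland, each point being the same-numbered samples of a diet in both tissues (n = 18 per panel). Over all samples r was 0.711, 0.464 and 0.528 on the log2 scale, and of these only that of duodenum and jejunum passed the adjustment. The pair of rumen and mammary gland was added after the values had been seen.

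Across the 18 samples of a tissue, the log2 levels of some pairs of members were related in the small intestine. They share a library and its total, so a large part of any sum is common to them. Among 15 relations, miR-192 and miR-194 in duodenum gave r = 0.763 (permutation p = 2.20e-04, adjusted 0.00165) and rho = 0.818 (permutation adjusted p = 0.0012), and r = 0.742 without the 2 samples farthest from the median. miR-192 and miR-215 in duodenum gave r = 0.619 (permutation adjusted p = 0.0226) and rho = 0.573 (adjusted p = 0.0583). Without the farthest 2 samples r was 0.562 and did not pass (permutation adjusted p = 0.0884). miR-194 and miR-215 in duodenum gave r = 0.438 and did not pass (permutation adjusted p = 0.174). With the total taken without the members r was 0.671 and passed (permutation adjusted p = 0.0096). In jejunum, miR-194 and miR-215 gave r = 0.753 (permutation adjusted p = 0.00165) and rho = 0.641 (adjusted p = 0.0365). Without the farthest 2 samples r was 0.583 and did not pass (permutation adjusted p = 0.0884). miR-192 and miR-194 there gave r = 0.379 (permutation adjusted p = 0.194) over all samples and 0.682 (adjusted p = 0.00664) within diets. With the total taken without the members this pair gave r = 0.575 and passed (permutation adjusted p = 0.0303). miR-192 and miR-215 in jejunum gave r = 0.376 (permutation adjusted p = 0.194) over all samples and 0.682 (adjusted p = 0.00664) within diets. With the total taken without the members this pair gave r = 0.516 and did not pass (permutation adjusted p = 0.0599). In mammary gland, miR-194 and miR-215 gave r = 0.649 (permutation adjusted p = 0.0174), which became 0.427 (adjusted p = 0.166) within diets. In liver and rumen no pair passed, and miR-192 and miR-194 in liver gave r = -0.420 (permutation adjusted p = 0.174).

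The diet comparisons addressed whether forage changed the cluster within a tissue. In the F tests over 3 diets, none of 15 passed, while 2 had an unadjusted p under 0.05, both in mammary gland. Among the 45 pairwise contrasts, 2 passed and 6 had an unadjusted p under 0.05. In duodenum, miR-215 ranged from 21032 to 91487 CPM (median 26923) with rice straw and from 40352 to 83168 (median 67573) with corn stover, and the log2 difference was 0.79 (SE 0.32, adjusted p = 0.270), where 0 of 336 miRNAs were called by limma and 45 had an unadjusted p under 0.05. In jejunum, corn stover against rice straw, miR-192 differed by -0.35 (adjusted p = 0.108), miR-194 by 0.23 and miR-215 by 0.65 (adjusted p = 0.180), in a comparison in which 28.6% of 336 miRNAs were called. In liver, where no miRNA was called in any diet contrast by limma and between 10 and 28 had an unadjusted p under 0.05, the mean of miR-192 lay between 133767 and 140530 CPM, that of miR-194 between 7518 and 7600 and that of miR-215 between 780 and 927 in the 3 diets. In jejunum the background was 22% for alfalfa hay against corn stover and 23.8% for the F test. In rumen it was 2.69% for alfalfa hay against rice straw and 1.49% for the F test, and in mammary gland 3.72% for the F test. Liver was the tissue with the most even diet means.

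The contrasts that passed were those of corn stover with rice straw in mammary gland. miR-194 ranged from 43.9 to 131 CPM (median 81.0) with rice straw and from 168 to 234 (median 220.0) with corn stover, without overlap, and with alfalfa hay from 44.8 to 213 (median 129). It rose by 1.33 on the log2 scale from rice straw to corn stover (SE 0.37, adjusted p = 0.0208), or 2.51-fold. miR-215 ranged from 22.9 to 329 CPM (median 98.1) with rice straw and from 101 to 529 (median 235) with corn stover, with overlap, and rose by 1.55 (SE 0.54, adjusted p = 0.0412). miR-192 differed by 0.17 (adjusted p = 0.636), from a mean of 2333 to 2605 CPM. In this comparison 26.6% of 323 miRNAs were called, 25.1% higher, and the median miRNA differed by 0.63, so that relative to the median miR-194 was 0.69 higher and miR-215 0.91 higher. Trimmed-mean scaling moved that median to 0.00484 and the calls from 81 higher and 5 lower to 16 and 20, and upper-quartile scaling moved them to -0.14 and to 10 and 31. With trimmed-mean scaling the differences were 0.59 (miR-194, adjusted p = 0.129) and 0.81 (miR-215, adjusted p = 0.315) and did not pass, and that of miR-192 turned to -0.58 (adjusted p = 0.177).

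Library depth moved with these mammary values. Of the 18 mammary libraries, 4 had fewer than 3000000 mapped reads (937556 to 2624975), 3 of them from rice straw and 1 from alfalfa hay, and none from corn stover. Their miR-194 lay between 43.9 and 67.7 CPM, below all of the 14 deeper libraries (94.3 to 234 CPM), while their miR-192 (1839 to 2708 CPM) overlapped with that of the deeper ones (2079 to 3210 CPM) and included the lowest mammary value. Without these 4 libraries, an exclusion chosen after seeing the data, miR-194 was 0.82 higher with corn stover than with rice straw (adjusted p = 0.0122) and miR-215 1.03 higher (adjusted p = 0.228). Leaving out the rice straw sample numbered 5 alone gave 1.15 for miR-194 (adjusted p = 0.0573) and 1.17 for miR-215 (adjusted p = 0.117). The call of miR-215 was also lost without rice straw 1, 2 or 4 or corn stover 1, 2, 4, 5 or 6, at adjusted p between 0.0573 and 0.096.

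Markers of other cell types moved with the same contrast. The 6 epithelial miRNAs summed to 30463 CPM on average with rice straw and 50061 with corn stover, and 3 of them rose and none fell, beside 25.1% of all 323 miRNAs called higher. Their median log2 difference was 1.04, against 0.63 over all miRNAs. Among these, miR-429 rose by 2.07 (adjusted p = 0.0116) and miR-141 by 1.32 (adjusted p = 0.0298). The smooth muscle pair summed to 183712 and 111323 CPM. In the fit, 1 of the pair was called lower and none higher, with a median log2 difference of 0.12. The 5 immune cell miRNAs summed to 3451 and 6097 CPM, and 3 of them were called higher and none lower. Of the 8 miRNAs linked to p53, 4 rose and none fell, among them miR-15a by 1.93 (adjusted p = 0.0116) and miR-16b by 1.53 (adjusted p = 0.0250), with a list median of 1.03. With trimmed-mean scaling 1 of the 6 epithelial and 2 of the 8 p53 miRNAs were higher and none was lower. With that scaling miR-141, at 0.57, and miR-16b, at 0.78, were no longer called. Of the 5 immune cell miRNAs, none was then called higher and 1 was called lower, and 1 of the smooth muscle pair stayed lower. The part of these shifts in the result was not tested.

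**Figure D5:**
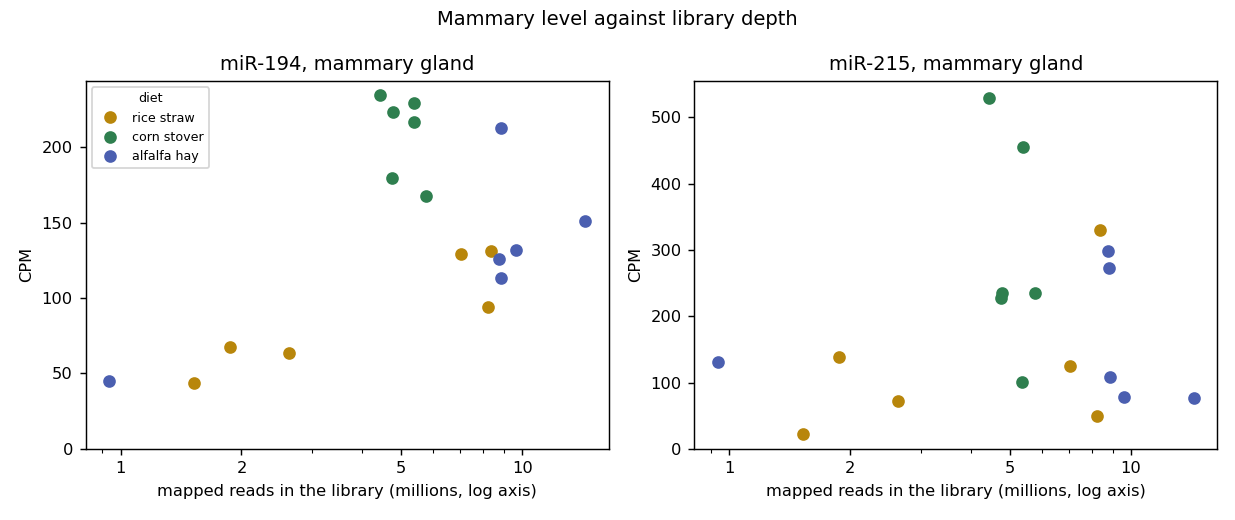
CPM of miR-194 and miR-215 (linear axis from 0) in the 18 mammary samples against mapped reads of the library (log axis), coloured by diet. The 4 libraries under 3000000 reads have miR-194 between 43.9 and 67.7 CPM, below the 14 deeper ones, and the 6 corn stover libraries lie at 168 CPM or more.

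Among the ratios, none of the 30 diet contrasts passed the adjustment, and 6 had an unadjusted p under 0.05. The ratio of miR-194 to miR-192 in mammary gland was 0.0382 ± 0.0169 with rice straw and 0.0805 ± 0.0118 with corn stover (SD, n = 6), a log2 difference of 1.17 with an exact permutation p of 0.00216, the smallest that splits of 6 against 6 can give in a 2-sided test, and an adjusted p of 0.0649. The 4 mammary libraries under 3000000 reads, 3 of them from rice straw, had ratios from 0.0178 to 0.0279. All deeper mammary libraries were at 0.0337 or more. Without those 4 libraries, an exclusion chosen after seeing the data, the log2 difference was 0.70. In jejunum the same ratio was 0.0449 ± 0.00403 with rice straw, 0.0445 ± 0.00780 with alfalfa hay and 0.0686 ± 0.0153 with corn stover (SD, n = 6). The log2 differences of corn stover from rice straw (0.58) and of alfalfa hay from corn stover (-0.61) each had an exact permutation p of 0.00866 and an adjusted p of 0.0866. In duodenum the ratio stayed between 0.0398 and 0.0566 in all samples. The miR-215 to miR-192 ratio in jejunum was 0.0988 ± 0.0309 with rice straw and 0.208 ± 0.0866 with corn stover, a log2 difference of 1.01 (exact permutation p = 0.0281, adjusted p = 0.169).

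Over the 90 samples, miR-192 and miR-194 had the most similar profiles of log2(CPM + 1), with r = 0.990, and miR-215 was at r = 0.859 and 0.856 to them. Since the points share 5 tissue means, these values describe the tissue pattern. Outside the cluster, the miRNA most like each member was miR-490, at r = 0.885, 0.875 and 0.901 with miR-192, miR-194 and miR-215. miR-490 averaged 67.8 CPM in duodenum, 93.8 in jejunum, 13.6 in liver, 2.29 in rumen and 1.47 in mammary gland. The next in place were miR-223, miR-574, miR-150 and miR-133a for miR-192 (r from 0.729 to 0.758), miR-223, miR-133a, miR-150 and miR-335 for miR-194 (0.749 to 0.781), and miR-150, miR-138, miR-142-3p and miR-342 for miR-215 (0.839 to 0.871). miR-150, miR-142-3p and miR-223 are known from blood and immune cells, and the 5 immune cell miRNAs summed to 25196 and 26061 CPM in duodenum and jejunum against 6499 in liver.

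In deviations from the 15 group means, which remove tissue and diet, the likeness among the members was weaker, at r = 0.334 for miR-192 and miR-194, 0.453 for miR-194 and miR-215 and 0.276 for miR-192 and miR-215 (n = 90). The nearest others were miR-191, miR-141 and miR-2285k for miR-192 (0.270 to 0.383), miR-29a, miR-15a and miR-30c for miR-194 (0.634 to 0.644) and miR-200b, miR-425-5p and miR-429 for miR-215 (0.292 to 0.312). The deviations were not scaled to the spread in each tissue. The coefficient of variation of miR-194 was 45.2% in mammary gland, against 11.4% (liver) to 29.9% (jejunum) elsewhere. In mammary gland miR-29a, miR-15a and miR-30c ranged from 426 to 5333, 111 to 1413 and 353 to 2463 CPM, with their lowest values of any tissue. The part of the shallow mammary libraries in these r values was not tested. Of the 6 miRNAs of the epithelial list, miR-141 was among the 3 nearest to miR-192 (r = 0.337), and miR-200b and miR-429 were among the 3 nearest to miR-215 (0.312 and 0.292). miR-200a, miR-200c and miR-375 were among the 3 nearest to no member, and none of the 6 was among those of miR-194. These r values were not tested.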

How the data were processed

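Small RNA libraries of 90 tissue samples were analysed, 18 for each of rumen, duodenum, jejunum, liver and mammary gland and 6 for each diet in a tissue, grouped by the labels. The authors filtered reads by quality with CASAVA 1.8. With sRNAbench they removed the adaptors and matched reads of over 15 nt to the bovine precursors of miRBase 22 (seed of 20 nt, 2 mismatches, at most 10 mappings), and they deposited CPM values per sample, not pooled. Although the files are called raw counts in the methods, their values summed to between 999560 and 999981 per sample and were used as CPM. All values were whole multiples, within 0.05, of a step taken as 1 read. The genome build is not given in the sources used here. Samples that share a label number were treated as unpaired, because the labels do not say what it stands for.

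Levels were compared with limma 3.58.1 in R 4.3.3 (intensity trend) on log2(CPM + 1), for miRNAs listed in every tissue of a fit with CPM above 1 in more than 50 percent of the samples of a tissue, with Benjamini-Hochberg adjustment over all miRNAs. A log2 difference on this scale understates changes of low miRNAs. Tissue pairs were fitted on 36 samples, diets on the 18 of a tissue. Ratios and correlations were tested by 2-sided permutation (scipy 1.17.1), exact for 6 against 6. Fits were tested on simulated data. The count test planned for reads implied by the CPM step was not run. PCR reads carry no molecular identifiers. The p-values set a difference against the spread between samples of a group. In the fits of tissue pairs each group held all 3 diets, with no term for diet or cow. The miRNAs named are the members, the 5 most like each over 90 samples and the 3 in deviations, and at most 3 of each marker or p53 list. Exceptions named without that rule are said to be chosen after their values were seen. The members and lists were chosen with earlier results of these data known. Alternatives covered scaling, pseudocount, filter, replicate block, fit and left-out samples.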

Additional observations from a re-analysis of the deposited data

Results flagged for a closer look

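Of 75 groups of 6 samples examined for a single sample standing apart from the other 5 (3 levels and 2 ratios in 15 groups), 5 were found, and chance alone flags about 1 in 20 groups. In liver of the alfalfa hay group, sample 2 had 1432.61 CPM of miR-215 against 744 to 882 in the other 5, and a miR-215 to miR-192 ratio of 0.0106979 against 0.00484 to 0.00689. The epithelial miRNAs of that liver summed to 2371 CPM, against 329 to 833 in the other 17 livers, and its immune cell miRNAs to 10633 CPM, against 3975 to 7896. Their part in the result was not tested, and the same-numbered duodenal, rumen and mammary samples also had the highest ratio of their group. In the rice straw group, sample 6 had 188688 CPM of miR-192 in liver against 113678 to 130929 in the others, and 3778.67 CPM in rumen against 2350 to 2838. In mammary gland of the same diet, sample 3 had a miR-215 to miR-192 ratio of 0.142488 against 0.0125 to 0.0597.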

How the results depend on the processing

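The 27 tissue differences that passed kept their direction under every alternative, except those of miR-192 and miR-194 between liver and jejunum with upper-quartile scaling (0.08483 and 0.1988), which moved the median of all miRNAs in that pair from -0.36 to 0.10; miR-194 there was also no longer called with trimmed-mean scaling (-0.1786). Between jejunum and duodenum, miR-192 was no longer called without the cows fed corn stover (-0.2943), and miR-194 in one fit of all 90 samples (-0.3259) and without the cows fed rice straw (-0.3278) or alfalfa hay (-0.2666). Scaling to the library without the members changed the calls of that pair from 47 higher and 33 lower to 18 and 91, and the members' calls held. Mammary gland against rumen turned sign for miR-192 and miR-215 with trimmed-mean (0.1692 and 0.3136) and for all 3 members with upper-quartile scaling (0.1994, 0.3428 and, for miR-194, 0.0003471), and was called for miR-192 and miR-194 without miR-143 and miR-145 in the total (-0.2335 and -0.4291) and in the fit of 90 samples (-0.184 and -0.379). Within corn stover, miR-215 in jejunum was no longer called with trimmed-mean scaling (-0.9254) or without miR-143 and miR-145 (-0.8201). The cause was not tested.

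For corn stover against rice straw in mammary gland, trimmed-mean and upper-quartile scaling, under which the median of all miRNAs was 0.00484 and -0.14, gave 0.5853 and 0.4052 for miR-194, 0.8059 and 0.6259 for miR-215 and -0.5808 and -0.7621 for miR-192, none called. The call of miR-215 was also lost without miR-143 and miR-145 (1.425) and without the 4 libraries under 3000000 reads (1.03), an alternative chosen after seeing the data. Leaving out 1 sample at a time gave 1.149 to 1.461 for miR-194 and 1.165 to 1.922 for miR-215. The adjusted p of the F test in mammary gland was 0.03044 for miR-194 without those 4 libraries, and 0.009019 to 0.1521 (miR-194) and 0.03675 to 0.2578 (miR-215) with 1 sample left out.

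Same-numbered samples deviated together with r over 0.1 in 14 of 18 duodenum and jejunum pairs (median r 0.178), and 8 of 18 correlated best with their own number, a hint from the data that the number follows the cow. The labels do not say so and 4 of the 18 pairs were not over 0.1, so the tests were kept unpaired. With the replicate block, the miR-194 to miR-192 ratio of liver against duodenum did not pass (0.2116, adjusted p = 0.0576). The F test of miR-194 in mammary gland passed with it (adjusted p = 0.04102). In diet comparisons within a tissue, the block joined different cows of different diets that shared only a number, so that pass is no adjustment for the cow. The other 87 values with the block kept their call and direction.

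The jejunum to duodenum miR-215 ratio was not called by medians (-0.7208). Ratios that had not passed turned sign for mammary gland against rumen (miR-215 by medians, -0.1226) and, for miR-194, against jejunum by medians (0.129) and, without samples under 2000000 reads, against jejunum, liver and rumen (0.2048, 0.09086 and 0.0369), where mammary gland against duodenum passed (0.3024). Correlations of miR-192 with miR-215 turned sign in liver with the total taken without the members (0.08527), in rumen and mammary gland without the farthest 2 samples (-0.2833 and -0.171) and in mammary gland within diets (-0.06465), as did the miR-194 ratio of duodenum and jejunum within diets (-0.06169). None of these had passed. The count test planned on reads was not run.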
